A study of Mus musculus with 24 samples.

Results

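Small nucleolar RNAs (snoRNAs) were read out on arrays of the ventral tegmental area (VTA), the midbrain region that holds the dopamine neurons of the reward system. The 51 genes described here are those whose row on the array carries only 1 gene symbol in the annotation of the array and whose symbol starts with Snord or Snora followed by a number. They make up 31 Snord and 20 Snora genes of the 19938 genes so represented, and 56 rows in all, because 5 of them (Snord58b, Snord118, Snora3, Snora21 and Snora30) had a pair of rows. For those 5 the row with the higher mean was taken. RNA came from VTA punches of 24 male C57BL/6N wild-type mice of 10-12 weeks, kept in 12 h of light and 12 h of dark with food at will, with 4 mice at each of ZT0 (lights on), ZT4, ZT8, ZT12, ZT16 and ZT20 and 1 array per mouse. No mouse was treated and none carried an induced mutation, so time of day was the only factor that differed by design. The times follow the sample labels, which give 4-h steps, whereas the methods of the study give steps of 6 h. Values are log2 RMA values, that is, background-corrected, quantile-normalized intensities summarized over the probes of a row. They can be compared between mice for 1 row but not between rows.

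snoRNAs are short RNAs of the nucleolus that steer chemical modification of other RNAs, above all ribosomal RNA. Those of the C/D box family, named Snord, guide methylation of ribose and bind the proteins fibrillarin, Nop56, Nop58 and Snu13, whereas those of the H/ACA box family, named Snora, guide the conversion of uridine to pseudouridine and bind dyskerin, Gar1, Nhp2 and Nop10. A few, such as U8, U14, U17 and U22, serve in the cutting of the ribosomal RNA precursor. Most mammalian snoRNAs are released from introns of other genes after splicing, and those host genes often encode ribosomal proteins and translation factors or are non-coding RNAs such as Gas5.

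This arrangement was visible in the gene table of RefSeq, in which 49 of the 51 snoRNA genes lay inside the span of another gene. Of these, 21 lay in genes of ribosomal proteins, 11 in non-coding genes and 17 in other coding genes, among them Hspa8, Nop56, Ncl, Eef2 and Rack1. Snord104 and Snord118 lay in no other gene. A row for an intronic snoRNA can also catch the unspliced RNA of its host, and the RNA was isolated on a column that retains short RNAs poorly, so the finished snoRNA and the host transcript cannot be told apart in these values. Fewer cells of a type and less RNA per cell cannot be told apart in a punch either.

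The mean log2 value of a gene over the 24 arrays ran from 3.24 for Snord58b to 8.14 for Snord57. The mean lay above 6.76, the median over all 23410 rows with a gene, for 10 of 31 Snord and 2 of 20 Snora genes, so that most of the set read in the lower part of the scale. Snord115, Snord3a, Snord13 and Snord64 are not named in the annotation used here.

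The arrays as a whole were alike, with medians from 6.71 to 6.79, except for replicate 4 of ZT0. Its median correlation with the other arrays was 0.970, whereas those of the other 23 arrays lay between 0.988 and 0.993. The counts of the 3 tests and the values that this array moved most are therefore also given without it. The dopamine neuron markers set for the tissue check were all measured (8 of 8), and the means of Th, the rate-limiting enzyme of dopamine synthesis, and of Slc6a3, the dopamine transporter, were 7.76 and 8.48 on the log2 scale.

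No snoRNA gene showed a 24-h rhythm past the threshold. In the cosine fit with limma, 0 of 51 genes had an adjusted p under 0.05 (Benjamini-Hochberg over all 23410 rows), against 7 rows, or 0.0299%, of all rows, and the smallest adjusted p was 0.405, for Snora73b. At an unadjusted p under 0.05 stood 8 genes, 6 Snord and 2 Snora, or 15.7% of the set, against 8.91% of all rows. Without ZT0 replicate 4 there were again 0 adjusted calls, and 9 genes (7 Snord, 2 Snora) were under the unadjusted threshold, against 9.09% of all rows. Snord61 was then no longer among them, and Snord58b and Snord87 were. Leaving out ZT8 replicate 1, ZT8 replicate 3 or ZT16 replicate 4 brought the unadjusted number to 5 genes each, against 8.33%, 9.2% and 7.4% of all rows. Whether Snord and Snora genes differed in this share was not tested.

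Snora73b had the smallest p of the set. It encodes a U17 RNA, which serves in the maturation of the small ribosomal subunit, and lies in the non-coding gene Snhg3. Its log2 values were 5.95, 5.88, 6.19 and 6.22 at ZT0 and 6.17, 6.56, 6.55 and 6.33 at ZT4. They were 6.52, 6.60, 6.47 and 6.61 at ZT8 and 6.36, 6.27, 6.32 and 6.73 at ZT12. At ZT16 they were 6.23, 6.45, 6.39 and 6.37, and at ZT20 6.38, 6.53, 6.22 and 6.25. The mean was lowest at ZT0, where all 4 mice lay below all 4 ZT8 mice, while the ZT0 mice overlapped those of ZT4 and ZT20 and the mice of the dark phase overlapped those of ZT4. The fitted peak lay at ZT10.3 ± 1.1 h (SE) with a peak-to-trough fold of 1.25.

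Snord14e belongs to the U14 family, which both guides methylation and takes part in the cutting of the 18S precursor, and lies in the heat-shock cognate gene Hspa8. Its values were 7.70, 7.71, 8.38 and 7.28 at ZT0, 6.71, 7.66, 7.61 and 7.56 at ZT4, and 6.88, 6.82, 7.26 and 7.68 at ZT8. In the dark phase they were 7.24, 7.58, 7.24 and 7.32 at ZT12, 8.04, 7.90, 7.59 and 7.72 at ZT16, and 7.60, 7.53, 7.38 and 7.27 at ZT20. Time means were highest at ZT16 (7.81 ± 0.20, SD, n = 4) and ZT0 (7.77 ± 0.45) and lowest at ZT8 (7.16 ± 0.40). Mice of ZT0 and ZT8 overlapped only through ZT0 replicate 4. The fitted fold was 1.39 with a peak at ZT20.0 ± 1.4 h, and the adjusted p from limma was 0.545. Snord14e left the unadjusted threshold of the rhythm fit without ZT0 replicate 1 or 2. The same held without ZT8 replicate 1, 2 or 3, ZT12 replicate 1, 3 or 4, or ZT16 replicate 1, 2 or 4. Without ZT0 replicate 4, ZT0 had the highest mean, and the highest and lowest time means lay 0.77 log2 units apart instead of 0.65. The fold was then 1.42 with a peak at ZT20.4 and an adjusted p from limma of 0.492. In the comparison of the 6 time points the unadjusted p from limma was 0.0032 instead of 0.022 (adjusted p = 0.430). The row of Hspa8 itself peaked at ZT1.4 with a fold of 1.18 (adjusted p = 0.350).

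The other 6 genes under the unadjusted threshold had fitted peaks between ZT12.9 and ZT19.4. Snord61, which lies in Rbmx, averaged 4.75 ± 0.59 at ZT16 and between 4.04 ± 0.14 and 4.20 ± 0.20 at the other 5 time points (SD, n = 4). Its ZT16 values were 4.73, 5.57, 4.20 and 4.50, so that the height of that time point rested largely on replicate 2. Without that array the peak-to-trough difference was 0.27 instead of 0.48 on the log2 scale, and without ZT0 replicate 4 its unadjusted p from limma was 0.063 instead of 0.046. Snord49a averaged 5.64 ± 0.47 at ZT16 and 5.24 ± 0.30 at ZT4, and its fold was 1.30. Its ZT16 values were 5.14, 5.70, 5.46 and 6.25. It was no longer under the unadjusted threshold without ZT16 replicate 4, ZT4 replicate 1 or ZT4 replicate 2. Snord53, in Wdr43, averaged 6.77 ± 0.45 at ZT16 and 6.42 ± 0.37 at ZT8, and without ZT16 replicate 2 its peak-to-trough difference was 0.22 instead of 0.35 on the log2 scale. Snora16a, in the non-coding gene Snhg12, averaged 4.70 ± 0.35 at ZT20 and 4.18 ± 0.08 at ZT4. Its ZT20 values were 4.80, 4.43, 4.41 and 5.15, and it left the unadjusted threshold without ZT20 replicate 1 or ZT20 replicate 4. Snord96a, in Rack1, had a fold of 1.18 and Snord85 of 1.16. The mice of the highest and of the lowest time point overlapped in Snord49a, Snord53, Snord61 and Snord85 and did not overlap in Snora16a and Snord96a, a pair of time points picked by their means. The remaining 43 genes had fitted folds from 1.02 to 1.31. The upper end was Snord47, whose fold was 1.04 without ZT0 replicate 4, and the 43 folds then ran from 1.02 to 1.29 (Snord87). The median fold was 1.16 for Snord and 1.10 for Snora genes, beside 1.07 over all rows, and 1.10 and 1.10 beside 1.07 without ZT0 replicate 4.

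**Figure D1:**
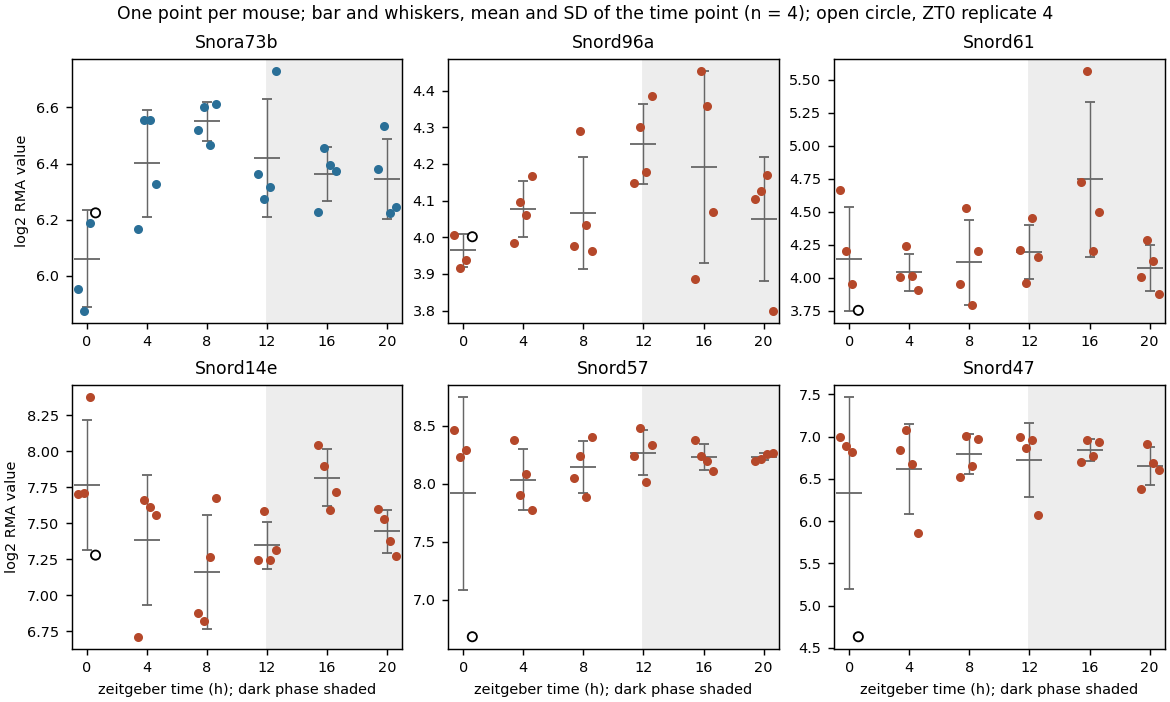
Log2 RMA values of 6 snoRNA genes by zeitgeber time (h) in the VTA, 1 point per mouse, with the mean and SD of the 4 mice of each time point and an open circle for ZT0 replicate 4. The mean of Snora73b was lowest at ZT0, the ZT16 mean of Snord61 held 1 mouse at 5.57, and the ZT0 means of Snord57 and Snord47 held 1 mouse far below the other 3.

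The 6 time points were also compared as groups, without a curve. None of the 51 genes had an adjusted p under 0.05 (smallest 0.627), against 1 of 23410 rows, or 0.00427%, and 4 were under an unadjusted p of 0.05 (Snord14e, Snord61, Snora16a and Snora73b), or 7.84%, against 5.1% of all rows. Without ZT0 replicate 4 these numbers were 0 and 6 genes, against 0.0214% and 7.9% of all rows, and without ZT12 replicate 3 or ZT12 replicate 4 they were 0 and 7 genes, against 4.72% and 5.38% of all rows at the unadjusted threshold. The distance between the highest and the lowest time mean was 0.07 to 0.71 log2 units for Snord genes, with a median of 0.27, and 0.08 to 0.51 for Snora genes, with a median of 0.21. It was, with ZT0 replicate 4 left out, 0.06 to 0.77 for Snord genes (median 0.27) and 0.14 to 0.54 for Snora genes (median 0.23).

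Early light (ZT0 and ZT4, the start of the rest phase of mice, 8 mice) was set against early dark (ZT12 and ZT16, the start of activity, 8 mice) to ask whether snoRNA levels differ between rest and activity. No gene differed past the threshold, with 0 of 51 at an adjusted p under 0.05 in limma, a smallest adjusted p of 0.337 (Snord96a), and 8 of 23410 rows, or 0.0342%, called over the whole array. Under an unadjusted p of 0.05 were 7 genes, 4 Snord and 3 Snora, or 13.7%, against 10.2% of all rows. Of these, 6 were lower in early light, where 5.52% of all rows stood, and 1 was higher, where 4.67% stood. In no member did the 8 early light and the 8 early dark mice lie apart without overlap, which 18 rows, or 0.0769%, did over the array.

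Without ZT0 replicate 4 there were again 0 adjusted calls, against 0.0555% of all rows, and the unadjusted number was 6 genes, against 11.1% of all rows. Of these, 5 were lower in early light, against 6.25% of all rows, and 1 was higher, against 4.85%. The gene no longer under the threshold was Snora41. The unadjusted number was 4 genes without ZT4 replicate 1 and likewise without ZT4 replicate 2, against 8.77% and 8.04% of all rows. It was 3 genes without ZT12 replicate 2 and likewise without ZT16 replicate 2, against 9.3% and 9.35%.

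Snord61 had the widest difference, with values of 3.75, 4.01 and 4.66 (lowest, median and highest) in early light and 3.96, 4.33 and 5.57 in early dark. The difference was -0.38 ± 0.15 on the log2 scale (SE), with an adjusted p of 0.367, and it was -0.24 without ZT16 replicate 2. Snord96a had 3.92, 4.00 and 4.17 in early light and 3.89, 4.24 and 4.45 in early dark, a difference of -0.20 ± 0.07. The early light and early dark mice overlapped in both genes, and 1 early dark mouse of Snord96a read lower than every early light mouse. Snord16a, in Rpl4, had 5.17, 5.55 and 5.75 in early light and 5.45, 5.69 and 5.98 in early dark, a difference of -0.19 ± 0.09. Snord58b, in Rpl17, was the gene on the other side, with 3.11, 3.40 and 3.65 in early light and 3.02, 3.22 and 3.39 in early dark (0.17 ± 0.08). It also had the lowest mean of the set, near the bottom of the scale of the array, where fold changes are compressed.

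Among Snora genes, both U17 genes of Snhg3 stood on the same side. Snora73a had 5.61, 5.82 and 6.01 in early light and 5.77, 5.98 and 6.23 in early dark, a difference of -0.17 ± 0.08 (adjusted p = 0.437). Snora73b had 5.88, 6.21 and 6.56 in early light and 6.23, 6.37 and 6.73 in early dark, a difference of -0.16 ± 0.07 (adjusted p = 0.456). These near-identical copies may share probe signal, so they are not independent of each other. Snora41, in the translation factor gene Eef1b2, had 4.76, 5.12 and 5.32 in early light and 4.92, 5.31 and 5.65 in early dark, a difference of -0.22 ± 0.10. The unadjusted p of Snora41 from limma was 0.039, and 0.057 without ZT0 replicate 4 (difference -0.21). Its host row went the other way (0.21 ± 0.10, adjusted p = 0.464). Snora70, in Rpl10, had a difference of -0.13 ± 0.07, and -0.08 without ZT16 replicate 2.

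**Figure D2:**
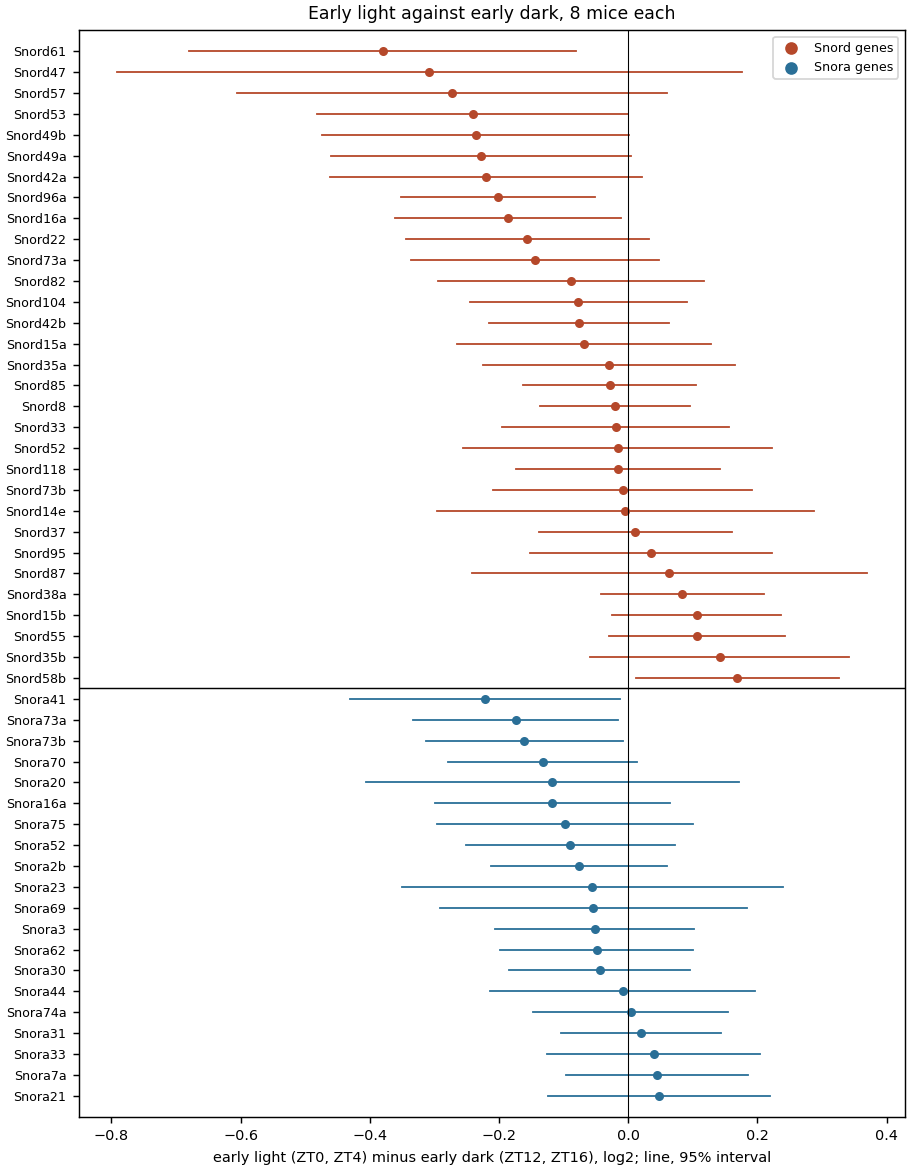
Early light minus early dark in log2 units for each of the 31 Snord genes (above the line) and 20 Snora genes (below it), with 8 mice on each side and 95% intervals as lines. Most points lie left of 0, but the intervals of 44 genes include 0 and no adjusted p was under 0.337.

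The differences of the other 44 genes ran from -0.31 (Snord47) to 0.14. That of Snord47 was -0.02 without ZT0 replicate 4 and that of Snord57, the next lowest, -0.07 instead of -0.27, and the range over the 44 genes was -0.22 (Snord49a) to 0.19 (Snord87). The median was -0.03 for Snord and -0.05 for Snora genes, beside -0.01 over all rows, and -0.02 and -0.06 beside -0.01 without that array. Below 0 were 23 of 31 Snord and 15 of 20 Snora genes, beside 52.5% of all rows. Without ZT0 replicate 4 these were 19 of 31 and 15 of 20, beside 54.4%. The 95% interval of the difference lay within 0.5 log2 units of 0 for 48 of the 51 genes, all but Snord47, Snord57 and Snord61, and within 1 log2 unit for all 51. Over the whole array it lay within these distances for 23169 and 23409 of 23410 rows. Leaving out ZT0 replicate 4 put it within 0.5 for 50 genes, all but Snord61. For comparison, the 291 microRNA genes had a median difference of -0.03, with 177 below 0, and the 24 host genes a median of 0.04, with 9 below 0 (-0.03 with 184 and 0.06 with 6 without that array). Whether the snoRNA genes differed from these groups was not tested.

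The widest departures within the set were those of 1 mouse. In ZT0 replicate 4, Snord47, which lies in the non-coding gene Gas5, read 4.63, against 6.99, 6.89 and 6.81 in the other 3 mice of that time point. Snord57, which lies in Nop56, the gene of a core C/D protein, read 6.68, against 8.47, 8.23 and 8.29. Snora23, which lies in the importin gene Ipo7, read 5.97, against 7.21, 7.18 and 7.12. In each of these genes the other 3 mice lay close together and replicate 4 lay more than 1 log2 unit below them. With a mean difference of -2.27 for Snord47, -1.65 for Snord57 and -1.20 for Snora23, these were 2 of 31 Snord genes and 1 of 20 Snora genes more than 1 log2 unit below the other 3 arrays, or 5.88% of the set, against 1.4% of all rows. None was more than 1 unit above, where 0.256% of all rows stood. As 1 mouse has no replicate, these are values without a test.

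The Snord genes were low in this array more broadly. Below the mean of the other 3 arrays were 25 of 31 Snord genes and 10 of 20 Snora genes, beside 39.9% of all rows. At a distance of 0.5 log2 units, 9 Snord genes and 1 Snora gene lay below, beside 7.57% of all rows, and 0 lay above, beside 4.94%. The array was the lowest of all 24 for 10 Snord and 2 Snora genes, beside 15.3% of all rows, and the highest for 1 Snord and 2 Snora genes, beside 20.6%. Members further inside the low group were Snord87, in the Snhg6 gene, with 4.72 against 5.61, 5.45 and 6.05, and Snord49b with 6.41 against 7.04, 7.32 and 7.22. Snord22, a U22 RNA of Snhg1 that serves in the processing of the 18S precursor, read 6.45 against 7.08, 7.08 and 7.14. Snord52 read 4.16 against 4.86, 5.02 and 4.90. At the other end, Snora74a of Snhg4 read 6.62 against 6.12, 6.29 and 6.07, Snora7a of Rpl32 6.81 against 6.41, 6.40 and 6.28, Snora44 of Snhg12 6.54 against 6.03, 6.24 and 6.31, and Snord95 of Rack1 7.52 against 7.09, 7.36 and 7.13.

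Put as the median over genes of the deviation from the mean of each gene, ZT0 replicate 4 stood at -0.17 for Snord and -0.10 for Snora genes, whereas the other 23 arrays lay between -0.05 and 0.10 for Snord and between -0.08 and 0.08 for Snora genes. The same quantity was -0.05 for microRNA genes, -0.14 for the 3 Scarna genes (Cajal body RNAs, which guide modification of spliceosomal RNAs), -0.07 for the host genes and 0.03 for all other genes. Over the other 23 arrays it ran from -0.09 to 0.07 for microRNA, -0.26 to 0.22 for Scarna and -0.18 to 0.10 for host genes. The values of these classes in ZT0 replicate 4 lay within those ranges. For all other genes the range was -0.03 to 0.02. The Snora value lay close to that of the next array, while the Snord value lay well outside the range of the other 23 arrays. Whether the families differed was not tested.

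**Figure D3:**
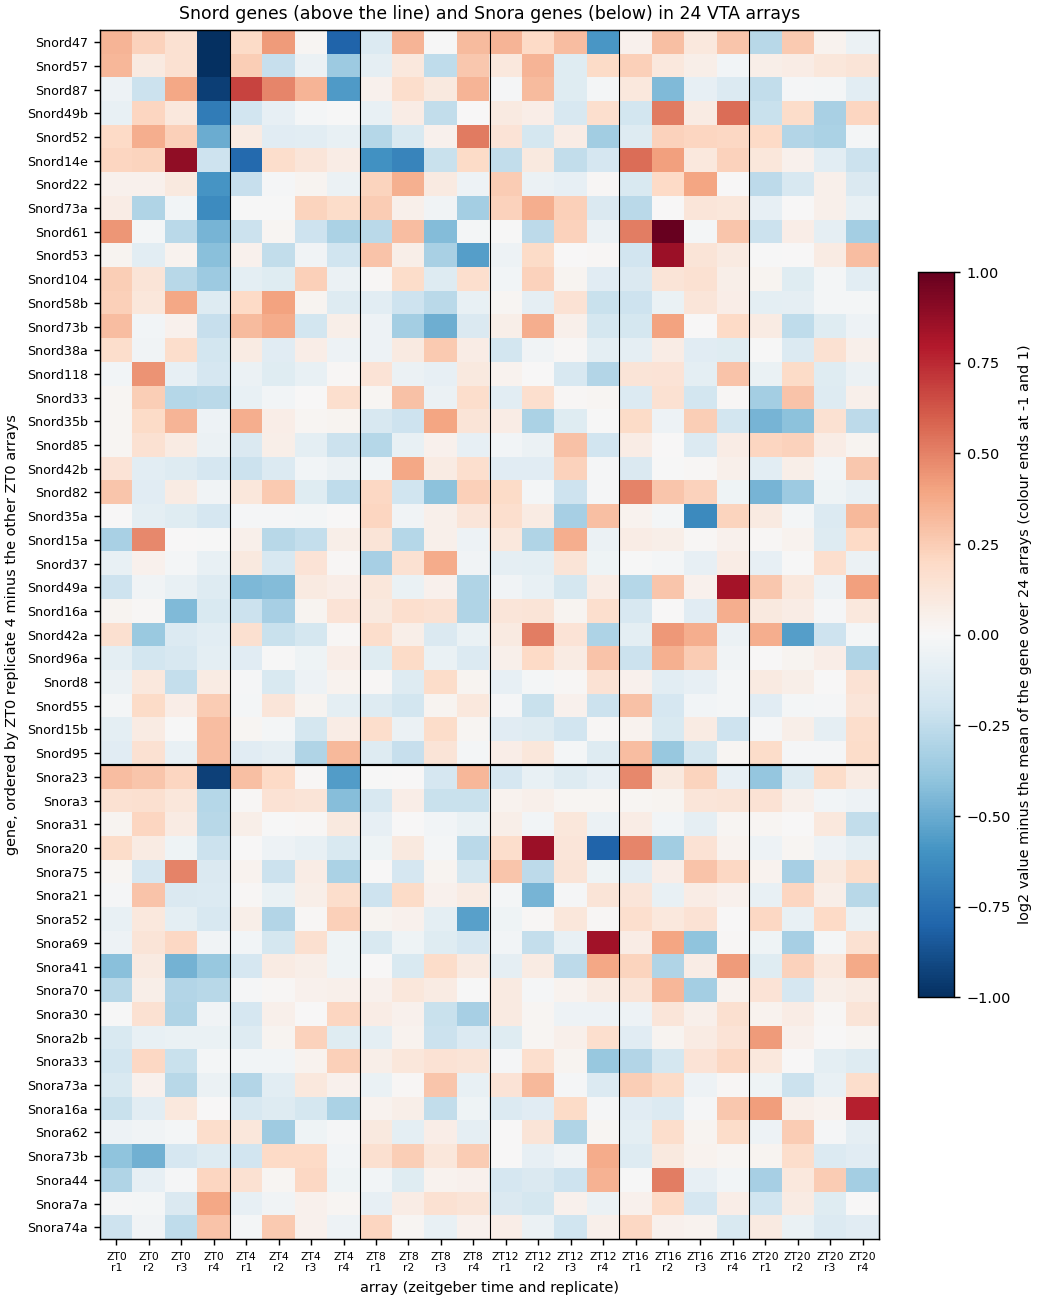
Deviation of each log2 value from the mean of its gene over 24 arrays, with arrays in order of zeitgeber time along the x axis and genes down the y axis (Snord above the line, Snora below), and colours ending at -1 and 1. The darkest column is ZT0 replicate 4 in the upper Snord rows and Snora23, and isolated cells stand out for Snord14e, Snord61, Snora20 and Snora69.

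Host genes were set beside the snoRNAs for the 28 pairs whose host had a row of its own (24 host genes). In ZT0 replicate 4, Snord47 differed from the other 3 ZT0 mice by -2.27, beside -0.94 for Gas5, which read 10.6 there, against 11.5 to 11.6. The other 3 rows annotated to Gas5 were lower by 0.51, 0.93 and 2.42 log2 units. Which part of the gene these rows read was not examined. Snora23 differed by -1.20, beside -0.90 for Ipo7. Snord57 differed by -1.65 while the row of Nop56 differed by 0.03, and Snord14e by -0.65 while that of Hspa8 differed by 0.01. In the nucleolin gene the host row was the lower one, with -0.12 for Snord82 and -0.26 for Snora75, beside -1.13 for Ncl. Snord73a and Snord73b differed by -0.54 and -0.34, beside -0.81 for Rps3a1, and Snord37 by -0.05, beside 0.56 for Eef2. Over the 24 host genes these differences ran from -1.13 to 0.56 with a median of -0.10.

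**Figure D4:**
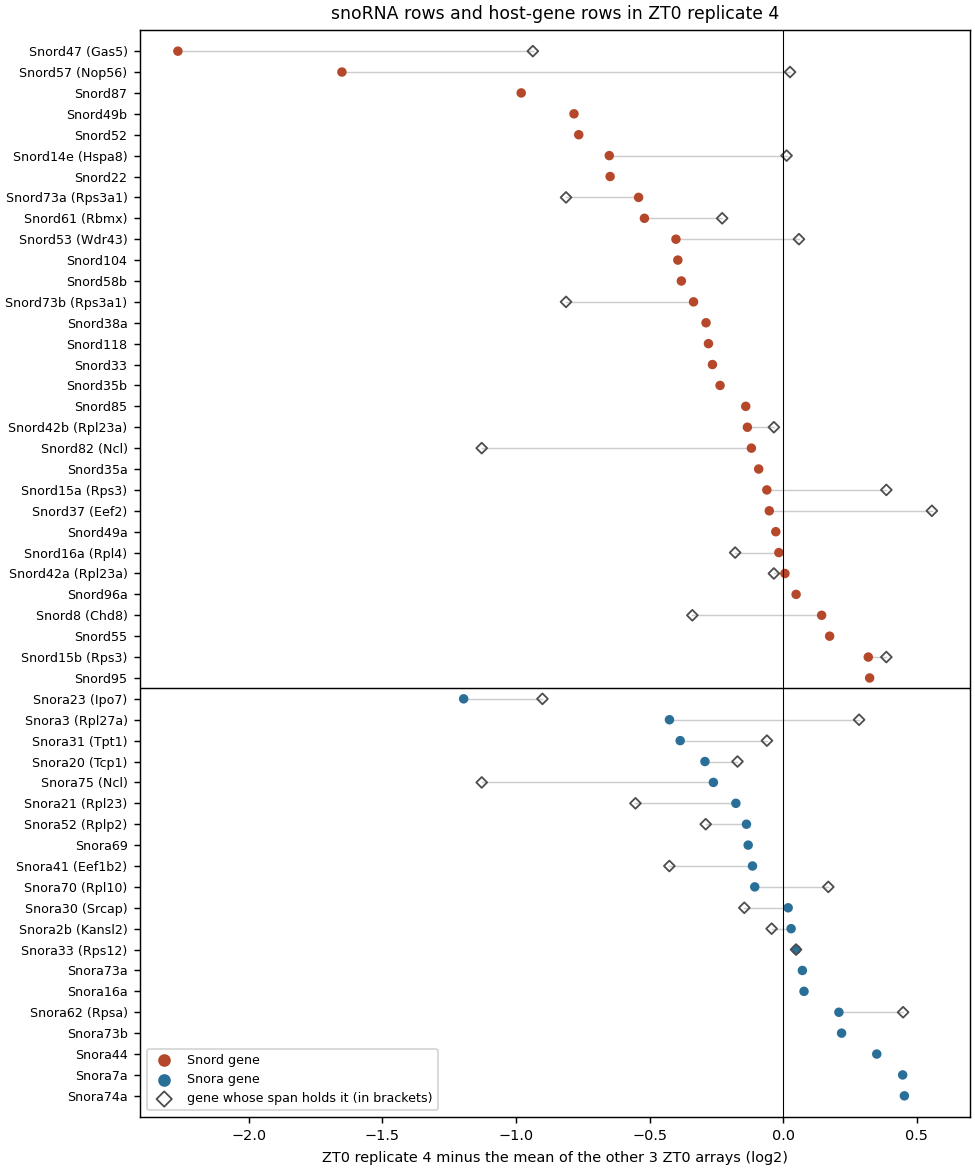
ZT0 replicate 4 minus the mean of the other 3 ZT0 arrays (x axis, log2) for each snoRNA gene (filled points) and, where it has a row, for the gene whose span holds it (open diamonds). Snord47 at -2.27 and Snord57 at -1.65 lie farthest left, the first with its host at -0.94 and the second with its host at 0.03.

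Cell markers of that array were compared as well. Below the mean of the other 3 ZT0 arrays were 6 of 8 dopamine neuron markers, 0 of 4 oligodendrocyte, 1 of 5 astrocyte, 4 of 5 microglia and 2 of 4 endothelial markers. The mean over the dopamine markers was 7.37 in ZT0 replicate 4, against 7.37 to 7.66 in the other 3, and the mean over the oligodendrocyte markers was 9.08, against 8.90 to 8.99. Over the other 23 arrays these means ran from 7.37 to 7.79 and from 8.77 to 9.10. The microglia mean was 6.64, against 6.77 to 6.92 in the other 3 and 6.64 to 6.92 in the other 23 arrays. The astrocyte and endothelial means, 8.24 and 7.16, lay within the range of the other 3. The part of cell composition in the snoRNA values was not tested.

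Some of the same genes were low in a second array, ZT4 replicate 4. There Snord47 read 5.86, against 6.84, 7.08 and 6.67 in the other ZT4 mice, Snord87 5.10, against 6.34, 6.15 and 6.01, and Snora23 6.35, against 7.20, 7.10 and 6.92. In ZT12 replicate 4, Snord47 was 6.08, against 6.99, 6.86 and 6.96. Snord57 was 7.78 in ZT4 replicate 4, against 8.38, 7.91 and 8.08, which is within reach of the other mice. ZT4 replicate 4 held 2 Snord genes more than 1 log2 unit below the other 3 arrays, against 0.0683% of all rows. The 31 Snord and 20 Snora genes were also counted as pairs of a gene and an array over the 23 arrays besides ZT0 replicate 4. Below by that distance were 2 Snord pairs and 1 Snora pair, and above were 1 Snord pair and 1 Snora pair. Of all pairs of a row and an array, 0.00799% and 0.00836% stood there.

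The spread between mice of 1 time point was wide for snoRNA rows. The residual SD had a median of 0.21 log2 units over Snord genes (0.10 to 0.56) and of 0.17 over Snora genes (0.12 to 0.33), beside 0.13 over all rows. It was above the median of all rows for 27 of 31 Snord and 19 of 20 Snora genes. Among the 9142 rows with means between the quartiles of the snoRNA genes, 5.10 and 6.70, the median was 0.14. For the microRNA genes it was 0.15 and for the 24 host genes 0.12. In 21 of the 28 pairs the snoRNA row varied more than the row of its host. The number of probes behind a row was not used here, and its part in this spread was not tested.

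Without ZT0 replicate 4 the median residual SD was 0.19 for Snord and 0.17 for Snora genes, beside 0.12 over all rows, so the families lay closer together. The SD of Snord47 was 0.32 instead of 0.56, that of Snord57 0.18 instead of 0.38 and that of Snora23 0.23 instead of 0.33. Snord87 went to 0.29 instead of 0.35. Snord61 (0.34), Snord14e (0.33) and Snora20 (0.33) kept SDs of 0.33, 0.31 and 0.33. Snora20, in the chaperonin gene Tcp1, read 5.14, 5.82, 5.09 and 4.17 at ZT12, a wider range within 1 time point than between any of its time means. Snora69, in Rpl39, read 3.97, 3.76, 3.92 and 4.83 at that time. Over all 24 arrays the 3 steadiest Snord genes were Snord8, in Chd8 (0.10), Snord38a (0.12) and Snord15b, in Rps3 (0.13). The 3 steadiest Snora genes over all 24 arrays were Snora31, in Tpt1 (0.12), Snora2b, in Kansl2 (0.13), and Snora30, in Srcap (0.14). Without ZT0 replicate 4 these 3 Snora genes had SDs of 0.09, 0.14 and 0.14. Snora7a (0.11) and Snora74a (0.13) then lay below Snora2b and Snora30.

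**Figure D5:**
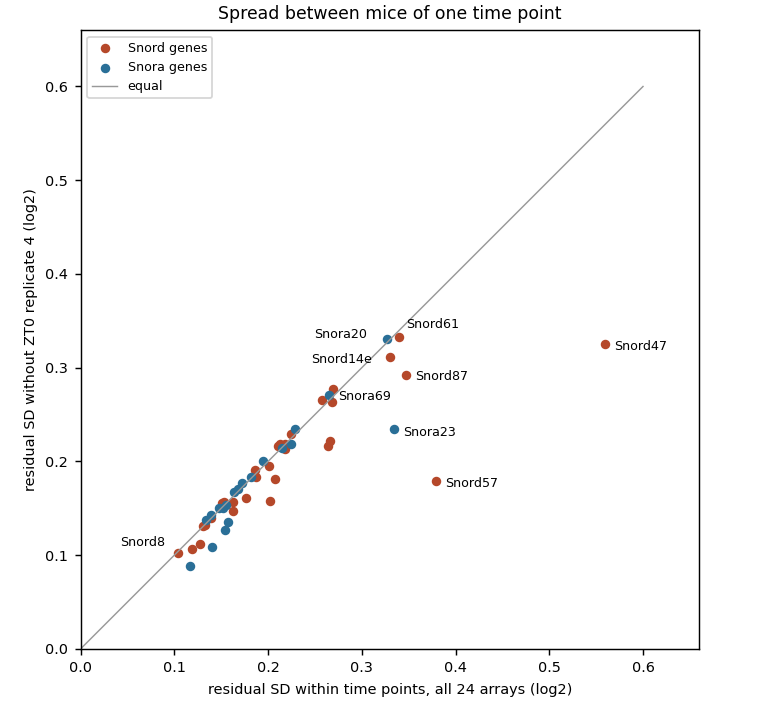
Residual SD within time points in log2 units over all 24 arrays (x axis) and without ZT0 replicate 4 (y axis) for each Snord and Snora gene, with a line where both are equal. Snord47, Snord57 and Snora23 drop well below the line, whereas Snord61 and Snora20 stay near it.

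snoRNA genes that share a host did not always read alike. There were 10 hosts with 2 members each. In Snhg3, Snora73a and Snora73b both had negative differences between early light and early dark. In Rack1, Snord96a had -0.20 and Snord95 0.04, and -0.21 and -0.0047 without ZT0 replicate 4. In Rps3, Snord15a had -0.07 and Snord15b 0.11 (-0.06 and 0.07 without ZT0 replicate 4), and in ZT0 replicate 4 they stood at -0.06 and 0.32. In 2410006H16Rik, Snord49b was lower by 0.78 log2 units in ZT0 replicate 4 and Snord49a by 0.03, although their differences between early light and early dark were -0.24 and -0.23. Without that array these differences were -0.14 for Snord49b and -0.22 for Snord49a. In Snhg12, Snora16a and Snora44 had fitted folds of 1.26 and 1.03, and of 1.26 and 1.05 without ZT0 replicate 4. None of these differences between neighbors was tested.

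Of the other members with a described role in the cell, none stood under an unadjusted p of 0.05 in any of the 3 tests. Snord118 is the U8 RNA, which is needed for the maturation of the large ribosomal subunit and lies in no host. It averaged 4.14 ± 0.28 at ZT0, 4.04 ± 0.05 at ZT4, 4.12 ± 0.11 at ZT8, 3.99 ± 0.15 at ZT12, 4.21 ± 0.16 at ZT16 and 4.08 ± 0.14 at ZT20 (SD, n = 4), and its fitted fold was 1.06. Snord33 and Snord35a are 2 of the Rpl13a snoRNAs, known from rodent cells for a part in the response to metabolic stress. Snord33 averaged between 6.04 ± 0.26 at ZT0 and 6.22 ± 0.16 at ZT8, and Snord35a between 4.45 ± 0.37 at ZT16 and 4.63 ± 0.11 at ZT8, with folds of 1.11 and 1.07. The time points of all 3 genes overlapped.

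The proteins that build snoRNA particles were taken as a pathway list. Of the 4 C/D box proteins 0 passed the adjusted threshold in the rhythm fit or between early light and early dark, and 1, Nop56, was under the unadjusted one in the rhythm fit (fold 1.12, peak at ZT8.5). Of the 4 H/ACA box proteins 0 stood under either threshold. Of 14 assembly and transport factors 0 passed the adjusted threshold, and Znhit3, Nufip1 and Rpap3 were under the unadjusted one, with fitted folds of 1.17, 1.22 and 1.18. Rpap3, a partner of the chaperone complex that loads C/D proteins, averaged 6.60 ± 0.17 in early light and 6.81 ± 0.11 in early dark (SD, n = 8 each, adjusted p = 0.337). These numbers stand beside 8.91% and 10.2% of all rows under the unadjusted thresholds. With ZT0 replicate 4 left out, Rpap3 was no longer under the unadjusted threshold in the rhythm fit and Nop10, an H/ACA box protein, was under it between early light and early dark, with 0 adjusted calls.

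In ZT0 replicate 4 the same proteins were uneven. Nop58 read 6.12, against 6.80 to 6.98 in the other 3 ZT0 arrays, and the dyskerin gene Dkc1 read 6.14, against 6.55 to 6.88. Nop10 read 8.68, against 9.99 to 10.3. The fibrillarin gene Fbl read 8.27, against 8.43 to 8.65. Snu13 read higher, with 10.1 against 9.56 to 9.75, and Nop56, Gar1 and Nhp2 differed by 0.03, -0.04 and 0.23.

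Of 12 other small structured RNAs, 0 passed the adjusted threshold in the rhythm fit or between early light and early dark. In the second comparison 4 were under the unadjusted threshold with lower values in early light (Rnu3a, Rnu7, Rpph1 and Vaultrc5), against 5.52% of all rows, and 1 with higher values (Rn7sk), against 4.67%, and these were the same without ZT0 replicate 4. In the rhythm fit 3 were under it (Rnu7, Rpph1 and Vaultrc5), against 8.91% of all rows, and 1 (Rpph1) without ZT0 replicate 4. Rpph1, the RNA of ribonuclease P, averaged 9.29 ± 0.15 in early light and 9.51 ± 0.11 in early dark (SD, n = 8 each, adjusted p = 0.223). Rnu3a, a gene of the U3 snoRNA that starts the processing of the ribosomal precursor and is named outside the Snord scheme, averaged 4.64 ± 0.13 and 4.83 ± 0.16 (adjusted p = 0.397). In ZT0 replicate 4 the Y RNA genes Rny1 and Rny3 were lower than in the other 3 ZT0 arrays by 1.52 and 0.85 log2 units and Rnu7 by 0.89, whereas Rmrp was higher by 0.65.

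Rows whose annotation joins a snoRNA to other genes were not members and could not be assigned to 1 gene. There were 41, of which 24 belong to the Snord116 cluster, a set of brain-expressed C/D RNAs without a known ribosomal target, and 17 to others. The 24 Snord116 rows hold only 7 distinct sets of values, so they are close to 1 measurement. They were higher in early light by 0.31 to 0.36 log2 units, with 0 adjusted calls (adjusted p from 0.264 to 0.322), and all 24 rows were under an unadjusted p of 0.05 both here and in the rhythm fit, against 10.2% and 8.91% of all rows. ZT0 replicate 4 lay 0.79 to 0.87 above the other 3 ZT0 arrays in them, the opposite side from Snord47 and Snord57. Without that array the Snord116 rows were higher in early light by 0.21 to 0.26 log2 units (adjusted p from 0.303 to 0.387), and all 24 rows were under the unadjusted threshold in that comparison and 4 in the rhythm fit. Among the other 17 rows 0 passed the adjusted threshold, 3 were under the unadjusted one in the rhythm fit and 1 between early light and early dark, and in ZT0 replicate 4 they differed by -0.39 to 0.39 with a median of 0.04.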

How the data were processed

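The deposited table holds log2 values that the authors made with RMA (background correction, quantile normalization and median polish) in R 2.13.1 from GeneChip Mouse Gene ST arrays hybridized with biotin-labeled sense-strand cDNA. RNA was isolated with the RNeasy Mini Kit. A genome build is not given in the sources used here, so no coordinates are printed. The 35556 probe sets have 1 gene (21789), several (1621) or none (12146). Those with a gene (23410) were tested. Symbols were updated through RefSeq (GRCm38.p6), which matched 21698, and the span that holds a snoRNA was taken from the same table without strand. The hosts of some snoRNA genes are not reported here.

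The linear models used limma 3.58.1 under R 4.3.3, and matplotlib 3.10.9 drew the plots. The log2 values were fitted on the cosine and sine of ZT (period 24 h, moderated F-test), and on the 6 time points as groups, tested together and as early light minus early dark. P values were adjusted over all tested probe sets (Benjamini-Hochberg). CircWave, named in the methods of the study, was replaced by the cosine fit. Each fit was tested on simulated data. Arrays are separate mice, and their number (4 per time point) limits the precision.

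Members and lists were chosen with earlier results of these data known. Named are the members past a threshold, those with the smallest p between early light and early dark, those farthest from the other arrays in ZT0 replicate 4, those with the largest and smallest residual SD or mean, and those with a textbook role. Others were chosen after their values were seen. Alternatives were other tests, normalizations, filters and rows, the replicate number as a block, and leaving out each array.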

Additional observations from a re-analysis of the deposited data

Results flagged for a closer look

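For each named member and time point, the gap between the most distant mouse and its nearest neighbor was set against the whole range of the 4 mice. Of 192 such groups over 32 members, 12 had a gap past the critical share of Dixon's test for 4 values. Some of these members were named for a wide spread or for their distance in ZT0 replicate 4, so this number is a description of the named genes and not a test. Over all 51 members it was 17 of 306 groups, or 5.56%, against 5.76% of all pairs of a row and a time point on the array, close to the 1 in 20 that chance gives.

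In ZT0 replicate 4 the low values of Snord47 (4.63, against 6.81 to 6.99), Snord57 (6.68, against 8.23 to 8.47) and Snora23 (5.97, against 7.12 to 7.21) were of this kind. Snord47 was also low in ZT12 replicate 4 (6.08, against 6.86 to 6.99). Snord14e was low in ZT4 replicate 1 (6.71, against 7.56 to 7.66) and Snord16a in ZT8 replicate 4 (5.32, against 5.71 to 5.79).

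High values were those of Snora41 (5.32, against 4.76 to 4.85) and Snora70 (5.47, against 5.12 to 5.14) in ZT0 replicate 2. Snora44 was high in ZT12 replicate 4 (6.67, against 6.11 to 6.18) and in ZT16 replicate 2 (6.84, against 6.24 to 6.32). Snora2b was low in ZT0 replicate 1 (3.59, against 3.67 to 3.68) and high in ZT20 replicate 1 (4.17, against 3.75 to 3.79).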

How the results depend on the processing

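The number of adjusted calls among the 51 genes was 0 in all 3 tests under every alternative run, leaving out each array included. The smallest adjusted p anywhere was 0.251 for a rhythm (Snord14e, array weights), 0.154 for early light against early dark (Snord96a, without ZT16 replicate 1) and 0.182 for the 6 time points (Snord14e, array weights). Numbers under an unadjusted p of 0.05 moved more. For the rhythm (8, against 8.91% of all rows) they were 5 with the unmoderated test (8.63% of all rows), 5 with all probe sets (9.72%), 5 with a 12-h term (5.74%), 4 after a further quantile normalization (8.13%) and 1 of the 12 genes above the median level (9.31%). For early light against early dark (7, against 10.2%) they were 3 with the unmoderated test (9.8%) and 0 of the 12 genes above the median level (10.3%). For the 6 time points (4, against 5.1%) they were 2 with the unmoderated test (5.38%), 1 of the 12 genes above the median level (4.71%) and 11 with array weights (13.0%, so the share over the whole array was higher too). Leaving out 1 array gave 5 to 10, 3 to 10 and 3 to 7 genes. For late light against late dark (ZT4 and ZT8 against ZT16 and ZT20) 7 genes were under the unadjusted threshold. Only 1 of them, Snord61, was also under it for early light against early dark. The others were Snora16a, Snord14e, Snord49a, Snord53, Snord85 and Snord87. The share of all rows for this contrast is not given here. In the late contrast the sign turned in Snora70 (0.0053) and Snora73b (0.12). The cause was not tested.

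In ZT0 replicate 4 a distance of 0.5 log2 units gave 9 low Snord genes in place of 2 of 31, against 7.57% in place of 1.4% of all rows. Of the 10 Snord genes above the median level, 1 (Snord57) lay more than 1 log2 unit below. The share of all rows above that level is not given here. The Snora median deviation in ZT0 replicate 4 was -0.61 over the only 2 Snora genes above the median level, Snora3 and Snora23. Over all 20 Snora genes it was -0.10.

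The labels do not say whether a replicate number links mice. With the mean of each time point taken off, 14 of 60 same-numbered pairs correlated above 0.1 (r from -0.30 to 0.58, median 0.03). Of the 24 arrays, 8 correlated best with their own number. As the pairs ran both ways, these values cannot decide whether same-numbered mice were linked. With the replicate number as a block, the unadjusted numbers were 8, 10 and 6, against 9.42%, 10.7% and 5.39% of all rows, with 0 adjusted calls.

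Most members read below the median level, where compression of fold changes can limit what is seen. Among rows between the quartiles of the member means the median residual SD was 0.14, beside 0.13 over all rows. The part of level in the spread of the members was not tested.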
